A study of Homo sapiens with 16 samples.

Results

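Small nucleolar RNAs (snoRNAs) and their relatives of the Cajal body (scaRNAs) were followed through knockdown and overexpression of EZH2, and knockdown of EED, in established basal-like breast cancer lines. A member was any array feature (transcript cluster) whose only platform symbol started with SNORD, SNORA or SCARNA and whose log2 signal reached 6 on at least 2 of the 16 arrays. One cluster, that with the highest mean, stood for each symbol. Of 33297 clusters on the array, 198 carried 1 such symbol; 80 of these reached the floor, and they gave 77 members. There were 40 box C/D snoRNAs (SNORD), 27 box H/ACA snoRNAs (SNORA) and 10 scaRNAs. The other 118 one-symbol clusters lay below the floor and were not tested. A further 76 clusters named a snoRNA together with other genes and are not members.

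The groups, each measured on 2 Affymetrix Human Gene 1.0 ST arrays, were as follows. HCC70 cells carried a short hairpin RNA against EZH2 (shEZH2) or, as their reference, a scrambled hairpin (set a). HCC70 cells carried a hairpin against EED (shEED) or a scrambled hairpin (set b). HCC70 cells carried EZH2 cDNA (labelled fip EZH2) or the empty vector plKO Puro. MDA-MB-468 cells carried shEZH2 or a scrambled hairpin. All 8 groups were stable infections with viral vectors in the presence of polybrene (6 µg/ml), then placed under puromycin (1 µg/ml), and no group was left uninfected. EZH2 is the enzyme of the histone-methylating Polycomb repressive complex PRC2, and EED is another of its core subunits. Only 1 hairpin label is given per target, and nothing says whether duplicates were separate cultures, so the p-values measure the spread between paired arrays, which may be technical. The labels do not pair the scrambled sets with the knockdowns; the order of the sample codes was used, which puts set a with shEZH2 and set b with shEED.

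Box C/D snoRNAs guide 2'-O-methylation and box H/ACA snoRNAs guide pseudouridylation, mostly of ribosomal RNA; scaRNAs guide the same modifications on the small nuclear RNAs of the spliceosome. In human cells most are cut out of introns of a host gene after splicing, and the hosts are often ribosomal protein genes or non-coding genes of the SNHG and GAS5 kind. Many such host RNAs begin at a C followed by a run of pyrimidines, known as a terminal oligopyrimidine start. By gene spans in RefSeq (GRCh38.p14), 76 of the 77 members lay inside at least 1 other gene, SNORD13 being the exception. Strand was not compared, and 8 members lay inside more than 1 gene, so some of these genes may overlap a member without being its source. The genes, called hosts here, numbered 63. Among them were 14 ribosomal protein genes and 10 SNHG genes, and 13 hosts held 2 or more members.

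The start windows of the hosts of the 10 members that passed a test in any treatment comparison are printed here because host transcription comes before the snoRNA. Each runs from 15 bases before the RefSeq start through the first 15 transcribed bases, 5′ to 3′ on the gene's strand. Capitals mark a stretch, called the run here, of a C within 5 bases of the start and at least 4 further pyrimidines. Pyrimidines directly before the marked C are left in lower case. In RPL13A, IPO7 and PHB2 they extend to more than 5 bases before the start.
RPL13A, host of SNORD33 and SNORD35A, chr19:49487593-49487622, plus strand: cgacaaaacctCCTCCTTTTCCaagcggct
RPL27A, host of SNORA3A, chr11:8682777-8682806, plus strand: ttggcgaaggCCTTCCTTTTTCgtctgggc
IPO7, host of SNORA23, chr11:9384637-9384666, plus strand: ttggcgcttctCTTTCCTTTCgcgccggtt
PHB2, host of SCARNA12, chr12:6970650-6970679, minus strand: cttccgctgcCCTTTCTTTCgccagcctta
SNHG8, host of SNORA24, chr4:118278747-118278776, plus strand: aaggcctcggCCTTTCacattcgggaagcg
SNHG19, host of SNORD60, chr16:2155344-2155373, minus strand: ctcgcccgcccctgtCTTTTCggggtcgag
TNPO2, host of SNORD41, chr19:12723918-12723947, minus strand: ctcagcccaggtttcagtccagcggaactg
NOP56, host of SNORD57, chr20:2652617-2652646, plus strand: gagcgcgctagccgcattgcgagccgaacc
CHD8, host of SNORD8, chr14:21437261-21437290, minus strand: gcgggcaggagcatcaggttaggttgcgca
The run was present in 6 of these 9 windows. Over all hosts with a RefSeq start entry it was present in 23 of 51 (45.1%), and in 21.1% of the 35116 genes with an entry. A match describes these letters, searched on the gene's own strand, and a window without one shows only that the run is not within it.

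The knockdowns are visible in the targets. EZH2 read 8.50 and 8.58 log2 units in HCC70 shEZH2 cells, against 10.015 and 9.998 with scrambled set a, and 8.39 and 8.48 in MDA-MB-468 shEZH2 cells, against 10.07 and 10.14 in the scrambled cells. EED read 7.54 and 7.49 in shEED cells, against 8.35 and 8.31 with set b. The EZH2 cDNA arrays read 10.20 and 10.27 for EZH2, against 9.94 and 9.94 with plKO Puro, a difference of 0.29 ± 0.07 (SE) that did not pass the test (limma adjusted p = 0.0961). Over all 33297 clusters on the array, array medians lay between 5.37 and 5.53, and duplicates correlated at r = 0.994 to 0.997. All 5 epithelial markers examined were well above the floor (lowest mean of the 5, EPCAM, 11.05), while PTPRC, CD3E, PECAM1, VWF and COL3A1, markers of blood, endothelial and stromal cells, stayed below it. CD68 (mean 8.72), of macrophages, and COL1A1, also stromal, were above.

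Member signals spanned means of 5.11 to 10.59 log2 units over the 16 arrays, with a median of 6.95 against 7.88 for all clusters tested. The highest means were those of SNORD33 (10.59), a methylation guide for small-subunit ribosomal RNA, SCARNA17 (10.16), SCARNA7 (9.69), SCARNA9 (9.46) and SNORD45A (9.35). Of the 77 members, 46 were at or above log2 6 on every array, and 9 had a mean below it. SNORA62 and SNORA33 entered narrowly, with second highest arrays of 6.11 and 6.13, while SNORD83A (5.92) and SNORA3B (5.96) just missed. The imprinted brain-enriched families were at the bottom of the scale: none of 20 SNORD116, 20 SNORD115 and 6 SNORD113 or SNORD114 clusters reached the floor, and their highest single values were 4.38, 3.58 and 3.91 log2 units. Several widely studied snoRNAs, among them SNORD3A (U3), SNORD118 (U8), SNORA73A and SNORA73B, had no cluster with 1 symbol and are not described.

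Duplicate arrays disagreed more about snoRNAs than about most transcripts. The SD between duplicates, pooled over the 8 groups, had a median of 0.22 log2 units over the members, against 0.11 over all clusters tested, a ratio of 1.95. It exceeded the all-cluster median in 72 of 77 members. Box C/D members had a median SD of 0.25, scaRNAs 0.24 and H/ACA members 0.18. The gap was present at every signal level: 0.27 against 0.16 for means under log2 6, 0.23 against 0.14 from 6 to 7, 0.19 against 0.12 from 7 to 8, and 0.23 against 0.10 from 8 up. An SD above 0.3 was found for 18 members (23.4%) and for 4.38% of all clusters. The other small RNAs tested (34 clusters with MIR, RNU and similar symbols, 7 of them microRNA host genes) had a median of 0.19, and the 36 host genes that could be tested one of 0.09.

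**Figure D1:**
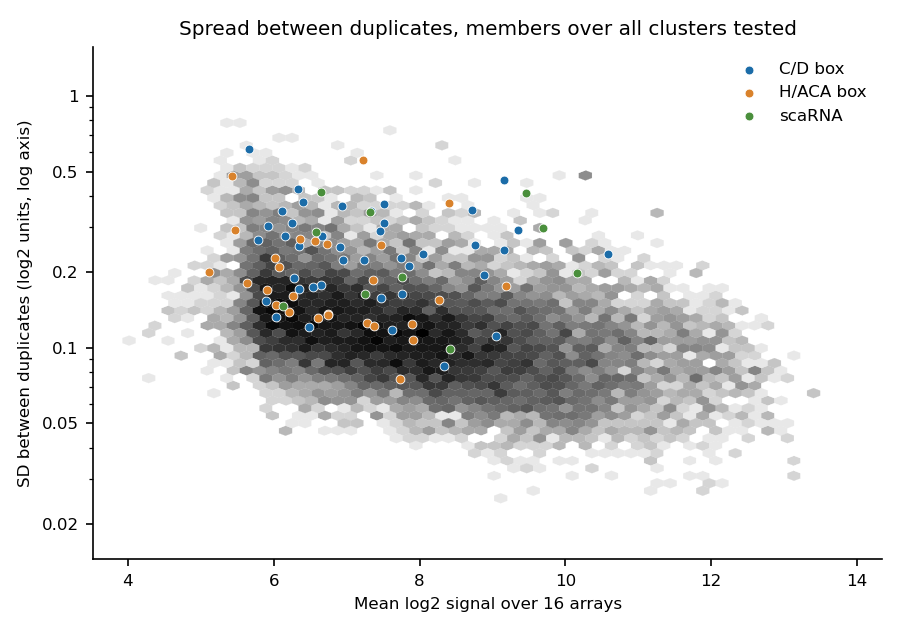
Each coloured point is a snoRNA or scaRNA, placed by its mean log2 signal (horizontal) and the SD between duplicates pooled over 8 groups (vertical, log axis); grey hexagons count all 16175 clusters tested, darker for more. Of 77 members, 72 sit above the all-cluster median SD of 0.11.

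The least reproducible member was SNORD13P3, a pseudogene copy of SNORD13, with an SD of 0.61; SNORA21 (0.56), SNORA62 (0.48), SNORD28 (0.46) and SNORD13 (0.42) followed. SNORA21 read 6.49 and 8.60 log2 units in the HCC70 shEZH2 duplicates, against 7.77 and 8.14 with scrambled set a. That is a gap of over 2 units between duplicates of 1 group, and the shEZH2 arrays fell on either side of the controls. The steadiest were SNORA71D (0.07), SNORD46 (0.08) and SCARNA12 (0.10). Duplicates also shifted together: 60 of 77 members were higher on replicate 2 than on replicate 1 of HCC70 shEZH2, with a median difference of 0.26, whereas 45.0% of all clusters were. With plKO Puro 56 members were higher on replicate 2 (median 0.22), against 58.3% of all clusters, and with scrambled set b only 16 were (median -0.11), against 46.4% of all. These shifts are measured between arrays of 1 group; their part in the results that follow was not tested beyond leaving out each array.

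In HCC70 cells EZH2 knockdown raised 8 members and lowered 1 at a limma adjusted p under 0.05, which is 11.7% of 77, beside 11.4% of all clusters tested (7.3% higher and 4.06% lower). The share of called members was thus near that of the array as a whole. Those that rose were the box C/D snoRNAs SNORD41, SNORD57, SNORD60, SNORD33 and SNORD35A, and the H/ACA snoRNAs SNORA23, SNORA24 and SNORA3A; the one that fell was SCARNA12. The RNA was bulk RNA, so fewer cells with a transcript and less of it per cell cannot be told apart. Without adjustment 17 were higher and 4 lower at p under 0.05, which is 27.3% of members beside 26.1% of all clusters. The shEZH2 and set a arrays did not overlap for 46.8% of members and 53.3% of all clusters, so a gap between groups is common with 2 arrays each. Over all 77 members the median change was 0.03 log2 units, and over all clusters 0.01; the median size of change was 0.26 for members and 0.15 for all clusters.

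**Figure D2:**
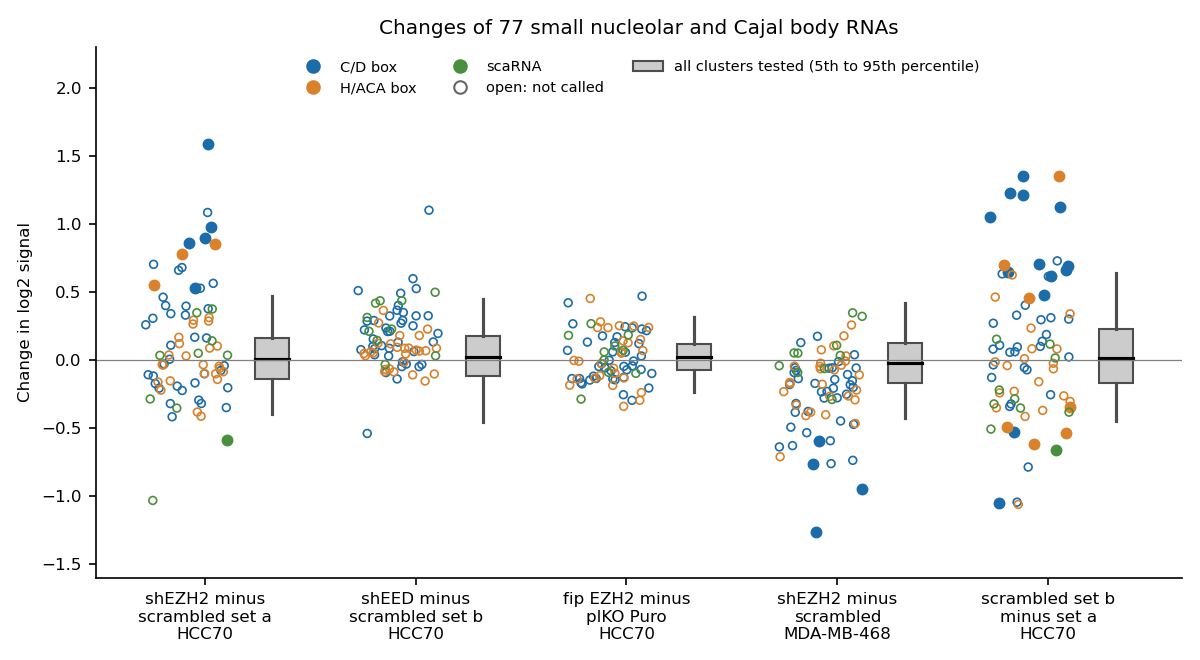
Changes in log2 signal of the 77 members in the 4 treatment comparisons and between the scrambled sets of HCC70 (left to right); filled points passed limma at adjusted p under 0.05, open points did not, and grey boxes give the quartiles and 5th to 95th percentiles of all clusters tested. Calls run upward with shEZH2 in HCC70 (8 of 9) and downward in MDA-MB-468 (4 of 4), and are absent for shEED and EZH2 cDNA.

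SNORD41, a guide for large-subunit ribosomal RNA in an intron of TNPO2, read 7.12 and 7.58 log2 units in HCC70 shEZH2 cells, against 5.71 and 5.81 with scrambled set a. The set a readings lay below the floor of log2 6. Both shEZH2 arrays stood above every other HCC70 array, where the highest reading was 6.24 in shEED cells. The change was 1.59 ± 0.27 (SE; limma adjusted p = 0.00283). With each of the 4 arrays left out in turn it stayed between 1.36 and 1.81 and remained called.

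SNORD57, a guide for small-subunit ribosomal RNA hosted by NOP56, itself a core protein of C/D particles, read 9.45 and 9.87 with shEZH2, against 8.54 and 8.84 with scrambled set a. The groups did not overlap, and the rise was 0.98 ± 0.21 (adjusted p = 0.0126). SNORD60, a large-subunit guide within SNHG19, read 8.003 and 8.39 with shEZH2, against 7.28 and 7.32 with scrambled set a. Again the groups were apart, by 0.89 ± 0.22 (adjusted p = 0.0217).

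RPL13A, which encodes a protein of the large ribosomal subunit, holds 4 members, and all 4 had higher means with shEZH2 in HCC70. SNORD33 read 11.13 and 11.58 with shEZH2, against 10.46 and 10.54 with scrambled set a, a rise of 0.86 ± 0.20 (adjusted p = 0.0194). SNORD35A, a large-subunit guide, read 8.13 and 8.27 with shEZH2, against 7.63 and 7.71, a rise of 0.53 ± 0.15 (adjusted p = 0.0398). For neither did the groups overlap. The other 2 had changes of 0.68 ± 0.24 (SNORD34, adjusted p = 0.0916) and 0.66 ± 0.25 (SNORD32A, adjusted p = 0.115), which were not called. SNORD32A read 7.34 and 8.31 with shEZH2, against 7.07 and 7.26, so its change came mainly from replicate 2. RPL13A itself had no cluster with 1 symbol at the floor.

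Among H/ACA members, SNORA24, a small-subunit guide within SNHG8, read 8.12 and 8.92 with shEZH2, against 7.72 and 7.76 with scrambled set a, a rise of 0.78 ± 0.22 (adjusted p = 0.0406). SNORA3A, within RPL27A, read 6.75 and 7.15 with shEZH2, against 6.25 and 6.55, a rise of 0.55 ± 0.13 (adjusted p = 0.0176). SNORA23, a large-subunit guide within IPO7, read 6.32 and 6.42 with shEZH2, against 5.56 and 5.47, below the floor in the controls, a rise of 0.85 ± 0.25 (adjusted p = 0.0486). All 3 were without overlap between groups, as were 46.8% of members and 53.3% of all clusters.

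SCARNA12, which guides modification of the U5 spliceosomal RNA from an intron of PHB2, was the only member called lower. It read 8.12 and 8.14 with shEZH2, against 8.68 and 8.76 with scrambled set a. Its groups were far apart for so steady a transcript, and the change was -0.59 ± 0.10 (adjusted p = 0.00361), called with each of the 4 arrays left out. Against scrambled set b the change was -0.30 (adjusted p = 0.0478). On the other HCC70 arrays it lay between 8.10 and 8.67, a range that includes the shEZH2 values. SCARNA9L had the largest fitted decrease of the 77 members but was not called: it read 5.64 and 5.10 with shEZH2, against 6.41 and 6.40 with set a, a change of -1.03 ± 0.35 (adjusted p = 0.0801). Of other scaRNAs, none of which passed, SCARNA5 changed by 0.14 ± 0.29, SCARNA6 by 0.37 ± 0.15, SCARNA7 by -0.29 ± 0.25 and SCARNA9 by -0.35 ± 0.35.

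**Figure D3:**
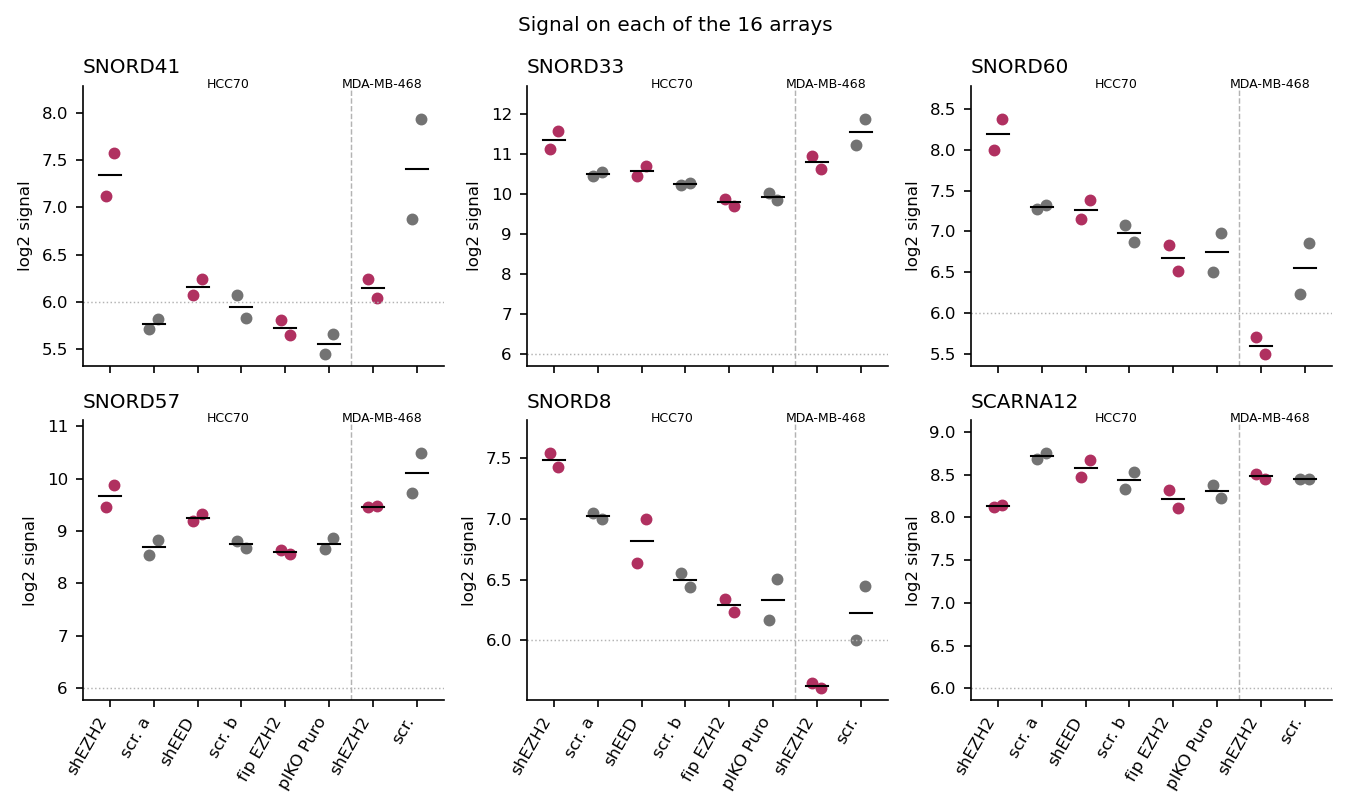
Log2 signal of 6 members on all 16 arrays, 2 points per group with a black bar at the mean; treated groups are red and stand left of their grey reference, a dashed line separates HCC70 from MDA-MB-468 and a dotted line marks log2 6. SNORD41 is at 7.12 and 7.58 with shEZH2 in HCC70 and 6.25 and 6.04 with shEZH2 in MDA-MB-468, against 5.71 and 5.81 and against 6.87 and 7.94 with scrambled hairpins.

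The number of calls depended on single arrays. Without replicate 1 of scrambled set a it was 2 (4.74% of all clusters called) and without replicate 2 it was 4 (4.25%). Without replicate 1 of shEZH2 it was 15, or 19.5% of members beside 9.51% of all clusters, and without replicate 2 it was 5, or 6.49% beside 12.2%. SNORD41 and SCARNA12 were the 2 members called under every omission. Against scrambled set b instead of set a, 32 members were called (15 higher, 17 lower, with 26.7% of all clusters called), and 8 of the 9 calls held in the same direction. SNORA3A was lost, with a change of 0.32 (adjusted p = 0.0886), and the change of SCARNA12 was smaller, as given above. Fitted on the 4 arrays alone, limma called 2 members and 1.71% of all clusters.

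In MDA-MB-468 cells EZH2 knockdown lowered 4 members and raised none, 5.19% of 77, beside 8.3% of all clusters tested (2.73% higher and 5.57% lower). All 4 were box C/D snoRNAs. Without adjustment 17 members were lower and 0 higher at p under 0.05, which is 22.1% of members beside 25.8% of all clusters. The median change was -0.17 over the members and -0.02 over all clusters. A change below 0 was found for 63 of 77 members, including 37 of 40 C/D members, and for 8793 of the 16175 clusters tested. Among scaRNAs 4 of 10 were below 0, with a median of 0.04. Neither the lean nor the difference between classes was tested.

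SNORD41 read 6.25 and 6.04 with shEZH2 in MDA-MB-468, against 6.87 and 7.94 with the scrambled hairpin, a change of -1.27 ± 0.27 (limma adjusted p = 0.0169). SNORD60 read 5.70 and 5.495 with shEZH2, both below the floor, against 6.24 and 6.86, a change of -0.95 ± 0.22 (adjusted p = 0.0235). SNORD33 read 10.95 and 10.63 with shEZH2, against 11.23 and 11.89, a change of -0.77 ± 0.20 (adjusted p = 0.0413). In each the groups were apart, as they were for 42.9% of members and 51.3% of all clusters. In each the scrambled duplicates were also far from each other, with replicate 2 the higher. SNORD8, a guide for the U6 spliceosomal RNA in an intron of CHD8, read 5.65 and 5.61 with shEZH2, against 6.00 and 6.45. The change was -0.60 ± 0.16 (adjusted p = 0.0392), with both shEZH2 readings below the floor.

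That gap within the scrambled pair was shared. All 10 members called in any treatment comparison were higher on replicate 2 of the MDA-MB-468 scrambled pair, by a median of 0.53 log2 units. These members were chosen by their calls, some of which rest on that array; among all 77 members 48 were higher there (median 0.10), and 54.3% of all clusters were. Without that array no member was called, and 1.43% of all clusters were; without replicate 1 of the pair 9 members were called, with 9.6% of all clusters. Leaving out replicate 1 of shEZH2 gave 0 members and 3.88% of all clusters, and leaving out replicate 2 gave 1 and 7.21%. Fitted on its 4 arrays alone limma called 0 members and 0.13% of all clusters.

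The effect of EZH2 knockdown was also compared between the lines. The change with shEZH2 in HCC70 minus the change in MDA-MB-468 was called for 13 members, 16.9% of 77, beside 13.2% of all clusters (8.97% more positive and 4.27% more negative in HCC70). Of the 13, 12 were more positive in HCC70, 9 of them C/D members, and SCARNA12 was more negative. The called share was not tested against that of all clusters. The largest was SNORD41, whose changes of 1.59 and -1.27 differed by 2.85 ± 0.38 (limma adjusted p = 0.000876). SNORD60 differed by 1.84 ± 0.31 (adjusted p = 0.00378), SNORD33 by 1.62 ± 0.29 (adjusted p = 0.00509) and SNORD57 by 1.61 ± 0.30 (adjusted p = 0.00628). Each of these, together with SNORD8 (1.06 ± 0.22) and SNORD35A (0.98 ± 0.21), was called with any 1 of the 8 arrays left out. With set b as the HCC70 reference 10 of the 13 calls held; SCARNA12 (-0.33, adjusted p = 0.141), SNORA3A (0.54, adjusted p = 0.0645) and SNORD14C (0.89, adjusted p = 0.132) were lost. Of the 8 members that rose in HCC70, 7 were called in this contrast, and SNORA23 was not (1.12 ± 0.35, limma adjusted p = 0.0575). The contrast contains the HCC70 change by which those 8 were chosen, so the 7 calls are not separate evidence.

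Some members entered only here. SNORD28, a small-subunit guide within SNHG1, had changes of 1.08 ± 0.39 in HCC70 and -0.76 ± 0.39 in MDA-MB-468, neither called, and a difference of 1.85 ± 0.55 (adjusted p = 0.0458). SNORD14C, within HSPA8, had 0.70 ± 0.27 and -0.59 ± 0.27, and a difference of 1.30 ± 0.38 (adjusted p = 0.043). SNORD46 and SNORA71D, among the steadiest members, differed by 0.54 ± 0.13 and 0.52 ± 0.12. With arrays left out the count of calls ran from 6 without replicate 2 of the MDA-MB-468 scrambled pair (7.79% of members beside 5.69% of all clusters) to 23 without replicate 1 of HCC70 shEZH2 (29.9% beside 11.6%).

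Across all 77 members, 38 were above 0 in HCC70 and below 0 in MDA-MB-468, which is 49.4%, and 30.4% of all clusters tested were. Another 10 had the reverse signs, 25 were below 0 in both lines and 4 above 0 in both. The changes in the lines had a Pearson r of -0.64 over the 77 members and -0.13 over all clusters. The 2 lines share no array, but members within 1 host share a transcript, and all members of a line share the same 4 arrays, so the r is a description.

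**Figure D4:**
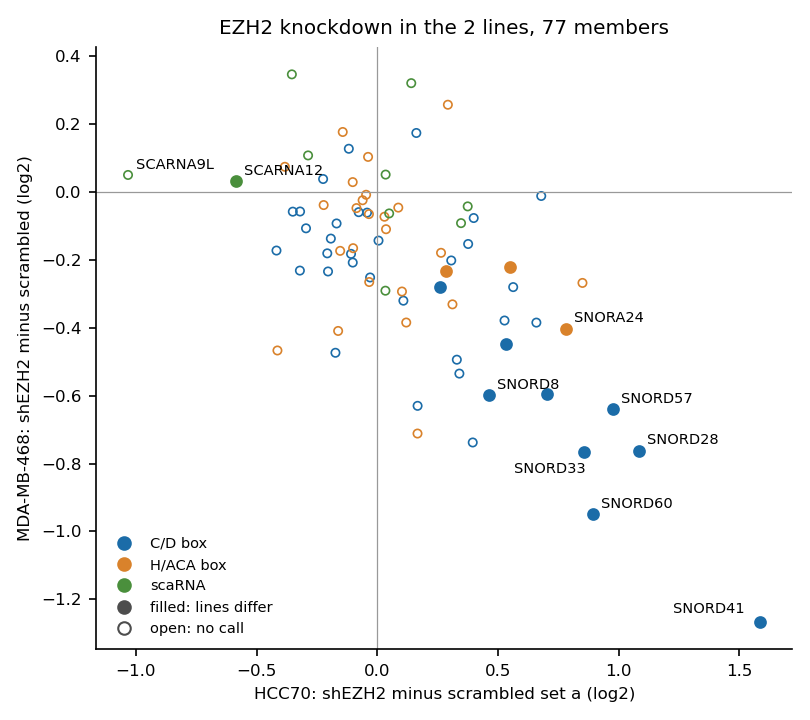
Change with shEZH2 in HCC70 (horizontal) and in MDA-MB-468 (vertical), in log2 units, 1 point per member; filled points are the 13 whose changes differed between the lines by limma at adjusted p under 0.05. Points fall toward the lower right, with SNORD41 at 1.59 and -1.27, and 38 of 77 lie in that quadrant.

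EED knockdown and EZH2 cDNA left no member called. With shEED limma called 0 of 77 members, beside 14.2% of all clusters tested (6.63% higher and 7.53% lower). At an unadjusted p under 0.05, 7 members were higher and 0 lower, which is 9.09% of members beside 27.4% of all clusters. The largest change was that of SNORD13, a guide involved in small-subunit ribosomal RNA processing that has its own promoter. It read 5.93 and 6.35 with shEED, against 5.64 and 4.44 with scrambled set b, a change of 1.10 ± 0.36 (adjusted p = 0.062). The groups did not overlap, as was so for 51.9% of members and 68.5% of all clusters. Only the reading of 6.35 reached the floor, and 1 scrambled array, at 4.44, was well below the other. SCARNA6 had 0.44 ± 0.15 (adjusted p = 0.074), and SNORD57 0.51 ± 0.21 (adjusted p = 0.141). SNORD41 read 6.07 and 6.24 with shEED, against 6.07 and 5.82, a change of 0.21 ± 0.27.

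Changes with shEED were small but leaned upward: 60 of 77 members were above 0, with a median of 0.12 beside 0.02 for all clusters, and 9 of 10 scaRNAs and 32 of 40 C/D members were above 0. This lean was not tested, and shEED replicate 2 was above replicate 1 in 57 of 77 members while set b ran the other way. Fitted on its own 4 arrays, limma called 13 members, all higher, and 27.4% of all clusters; against scrambled set a it called 28 (22 higher, 36.7% of all clusters).

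With EZH2 cDNA limma called 0 of 77 members, beside 0.977% of all clusters (0.909% higher and 0.068% lower), and 1 was higher and 1 lower at an unadjusted p under 0.05, which is 2.60% of members beside 10.4% of all clusters. No member was called under any setting tried. Changes ran from -0.34 to 0.47, with a median of -0.01 over the members and 0.02 over all clusters. SNORD33 read 9.88 and 9.70 with EZH2 cDNA, against 10.01 and 9.84 with plKO Puro, and SNORD41 5.81 and 5.65, against 5.45 and 5.66. Both pairs of groups overlapped.

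The contrast of shEZH2 with shEED in HCC70, each set against its own scrambled set, was called for 1 member, SCARNA12, beside 6.31% of all clusters (4.35% higher and 1.96% lower). Its changes were -0.59 with shEZH2 and 0.14 ± 0.10 with shEED, which differed by -0.73 ± 0.14 (adjusted p = 0.011). SNORD41 was at 1.38 ± 0.38 (adjusted p = 0.0523), not called. With the scrambled sets exchanged SCARNA12 was no longer called (-0.16, adjusted p = 0.395), while 46 other members were, beside 42.3% of all clusters. Taking both sets together as 1 shared reference cancels the scrambled arrays and leaves shEZH2 minus shEED directly, without a scrambled control. On that difference SCARNA12 was at -0.44 (limma adjusted p = 0.00636), and 34 members were called, beside 32% of all clusters.

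The 2 scrambled sets of HCC70 differed from each other in more members than either knockdown differed from its own set. Set b minus set a was called for 21, 14 higher and 7 lower, which is 27.3% of 77, beside 22.7% of all clusters (15.3% higher and 7.41% lower). Of the 14, 11 were box C/D. None of the 9 members called with shEZH2 in HCC70 was among the 21. Leaving out any 1 of the 4 arrays lowered both the count of called members and the share of all clusters called.

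SNORD12C, within ZFAS1, read 6.65 and 6.52 in set b, against 5.29 and 5.17 in set a, a difference of 1.35 ± 0.22 (limma adjusted p = 0.00129). SNORA75, within NCL, read 6.16 and 5.93 in set b, against 4.67 and 4.71 in set a, a difference of 1.35 ± 0.16 (adjusted p = 0.000157). The set a readings of both lay below the floor. SNORD45B, SNORD49A and SNORD50B differed by 1.21, 1.13 and 1.22. For each of these 5 the shEZH2 arrays lay nearer to set a and the shEED arrays nearer to set b; SNORD49A, for example, read 5.03 and 4.56 with shEZH2 and 6.57 and 6.49 with shEED. SNORD15B, within RPS3, ran the other way, at 6.65 and 6.22 in set b, against 7.38 and 7.60 in set a (-1.05, adjusted p = 0.0298).

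GAS5, a non-coding host gene, holds 6 members, and all 6 were higher in set b than in set a, by 0.31 to 0.73, with 2 called (SNORD75 at 0.70 ± 0.18, adjusted p = 0.0181, and SNORD78 at 0.66 ± 0.22, adjusted p = 0.0488). Averaged over the 6, the signal was 8.39 and 8.33 in set b, against 7.71 and 7.89 in set a. It was 7.62 and 7.66 with shEZH2 and 8.45 and 8.50 with shEED, and no GAS5 member was called in any treatment comparison. SNORD44 read 8.68 and 8.71 with EZH2 cDNA, against 8.02 and 9.12 with plKO Puro. All 6 were lower on replicate 1 of plKO Puro than on replicate 2, and their means on these arrays were 7.87 and 8.60. In MDA-MB-468 the mean over the 6 was 8.39 and 8.78 with shEZH2, against 8.62 and 8.67 with the scrambled hairpin.

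**Figure D5:**
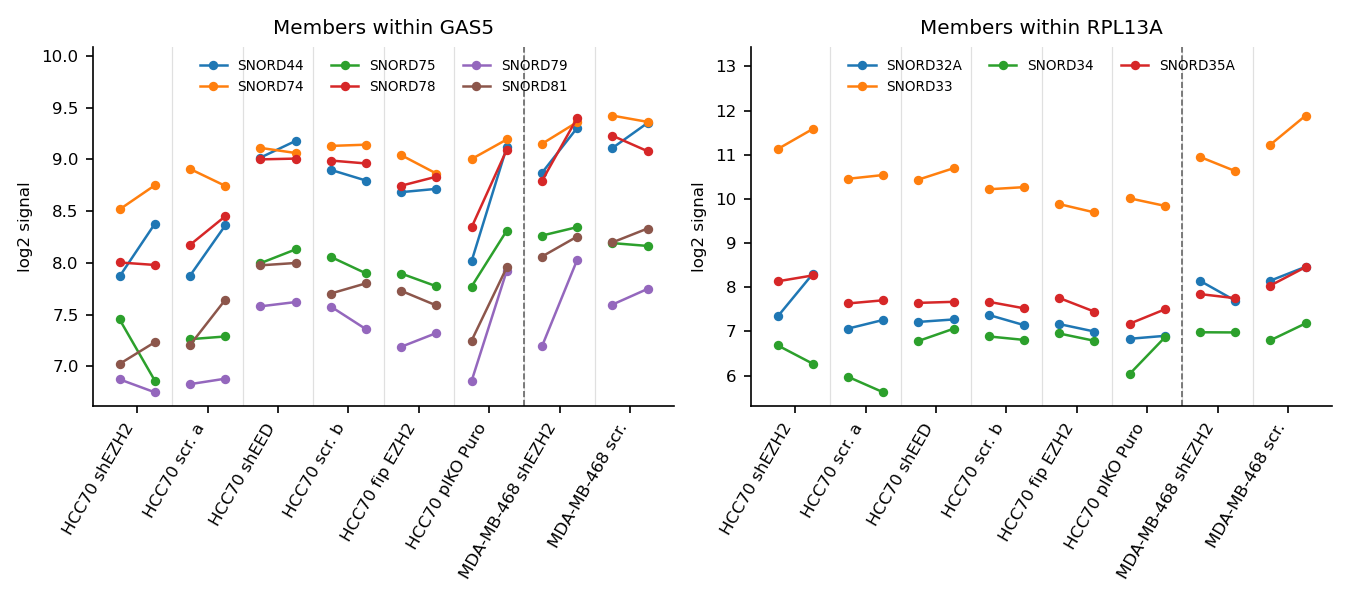
Log2 signal of the 6 members within GAS5 (left) and the 4 within RPL13A (right) on all 16 arrays; each short line joins replicate 1 and replicate 2 of a group, treated groups stand left of their reference, and a dashed line separates HCC70 from MDA-MB-468. GAS5 members sit low in HCC70 shEZH2, scrambled set a and replicate 1 of plKO Puro, while SNORD33 is at 11.13 and 11.58 with shEZH2 in HCC70, against 10.46 and 10.54 with set a.

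Before any knockdown of EZH2 the lines already differed widely. MDA-MB-468 minus HCC70 (scrambled, set a) was called for 56 members, 46 higher and 10 lower, which is 72.7% of 77, beside 67.1% of all clusters (36.7% higher and 30.3% lower). The median difference was 0.62 over the members and 0.03 over all clusters. Box C/D members had a median of 1.05, with 32 of 40 called higher; H/ACA members had 0.35, and scaRNAs -0.25, with 3 called higher and 4 lower. SNORD13 read 7.96 and 8.91 in MDA-MB-468, against 6.01 and 6.15 in HCC70 (2.35 ± 0.36, limma adjusted p = 0.000106). SCARNA9L read 8.38 and 8.69, against 6.41 and 6.40 (2.14 ± 0.35, adjusted p = 0.000187). SCARNA7, which guides modification of the U1 spliceosomal RNA, ran the other way, at 9.03 and 8.90 in MDA-MB-468, against 10.08 and 10.31 in HCC70 (-1.23 ± 0.25, adjusted p = 0.0011). With set b in place of set a 38 members were called, which is 49.4% of 77, beside 61.7% of all clusters. Set b minus set a itself had a median of 0.23 over C/D members, -0.07 over H/ACA members and -0.30 over scaRNAs. The class medians of the difference between the lines therefore depend on the scrambled set used.

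SCARNA9, a guide for the U2 spliceosomal RNA, had 2 clusters at the floor that did not move together. The one used here, with a mean of 9.46, changed by -0.35 ± 0.35 with shEZH2 in HCC70 (limma adjusted p = 0.563) and by 0.35 ± 0.35 in MDA-MB-468 (adjusted p = 0.573). The other, with a mean of 6.30, read 7.005 and 8.040 with shEZH2 in HCC70, against 5.82 and 5.48 with scrambled set a, a change of 1.87 ± 0.39 (adjusted p = 0.00994). In MDA-MB-468 it read 5.25 and 5.24 with shEZH2, against 6.07 and 7.38, a change of -1.48 ± 0.39 (adjusted p = 0.0394). This second cluster was put aside by the rule of 1 cluster per symbol, and it was singled out after its values were seen. SCARNA17 also had 2 clusters, with changes of -0.09 and 0.19 in MDA-MB-468 and neither called, and the 2 of SNORA10 held the same 16 values.

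Host genes could be tested in part: of 63 hosts, 36 had a cluster with 1 symbol at the floor. With shEZH2 in HCC70, RPLP2 rose (0.32 ± 0.09, limma adjusted p = 0.038), while RABGGTB fell by 0.45 (adjusted p = 0.00421), PABPC4 by 0.33 and ODC1 by 0.25. These 4 are 11.1% of the 36, beside 11.4% of all clusters, and none of them held a called member. TNPO2, the host of SNORD41, changed by 0.22 ± 0.09 in HCC70 (adjusted p = 0.173) and by -0.20 ± 0.09 in MDA-MB-468 (adjusted p = 0.204), neither called. PHB2, the host of SCARNA12, changed by 0.20 ± 0.12 in HCC70, opposite in sign to SCARNA12 and not called.

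With shEED 7 hosts rose and 3 fell, which is 27.8% of 36 beside 14.2% of all clusters; the difference from the members, of which none was called, was not tested. ZFAS1 rose by 0.55 ± 0.09 (limma adjusted p = 0.00159), while its member SNORD12C changed by 0.04 ± 0.22. SNHG17 rose by 0.52 ± 0.10 and NCAPD2 by 0.47 ± 0.08. DIPK1A fell by 0.71, SEC14L1 by 0.70 and ODC1 by 0.38. SNORD21, the member within DIPK1A, also lies within RPL5, which changed by 0.09 ± 0.11 (adjusted p = 0.684). Strand was not compared, so DIPK1A may overlap SNORD21 without being its source. With EZH2 cDNA no tested host was called, beside 0.977% of all clusters. With shEZH2 in MDA-MB-468 none was called either, beside 8.3% of all clusters. Over 44 pairs of a member and a tested host, signs were the same in 29 pairs with shEZH2 in HCC70, 30 with shEED, 26 with EZH2 cDNA and 29 with shEZH2 in MDA-MB-468, with r of 0.26, 0.18, 0.14 and 0.13. The pairs share arrays and some share a host, so these are descriptions.

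Proteins that bind, assemble or carry these RNAs were taken from a list of 28 genes, of which 24 were tested. With shEZH2 in HCC70, NOP10, a core protein of H/ACA particles, rose (0.67 ± 0.19, limma adjusted p = 0.0376), while COIL, which encodes the Cajal body scaffold coilin, fell by 0.48 (adjusted p = 0.0123) and ZNHIT3, a C/D assembly factor, by 0.28 (adjusted p = 0.044). In MDA-MB-468, PHAX, an export adaptor that also carries box C/D precursors, fell by 0.61 (adjusted p = 0.00541) and COIL fell by 0.38 (adjusted p = 0.0447). With shEED, NUFIP1, a C/D assembly factor, rose by 0.47 ± 0.09 (adjusted p = 0.00505), GEMIN5 by 0.37 ± 0.11 and ZNHIT3 by 0.27 ± 0.08. With EZH2 cDNA limma called 0 of the 24, beside 0.977% of all clusters tested. With shEZH2 in HCC70 it called 1 of the 24 higher and 2 lower, beside 11.4% of all clusters. In MDA-MB-468 it called 2 of the 24 lower, beside 8.3% of all clusters. With shEED it called 3 of the 24 higher, beside 14.2% of all clusters. Whether the 24 were called more often than all clusters was not tested. The median change over the 24 was -0.16 with shEZH2 in HCC70, 0.14 with shEED, -0.06 with EZH2 cDNA and -0.15 with shEZH2 in MDA-MB-468.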

How the data were processed

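Total RNA was extracted with a silica column kit (RNeasy Mini Plus) and 200 ng labelled for each array, per the labels' protocols; such columns hold back short RNAs incompletely, which bears on transcripts of snoRNA length. The deposited values are log2 signals, 1 per cluster and array, made by the authors with RMA in Affymetrix Expression Console, per the submitters' processing notes; the software versions and the genome build are not given in the sources used. The probes cannot tell a mature snoRNA from the host intron that holds it. An array has no read depth, and the number of arrays limits the precision.

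A model of 8 group means was fitted to 16 arrays with limma 3.58.1 in R 4.3.3 (8 residual and 3.69 prior degrees of freedom) on the 16175 clusters with at least 2 arrays at log2 6. Tests are two-sided, adjusted by Benjamini-Hochberg over all clusters tested, and called under 0.05. The fit was tested on simulated data. Same-numbered arrays did not deviate together (r from -0.04 to 0.08), so numbers were not taken as pairs. Members, gene lists and the rule for named genes were chosen with earlier results of these data known: per treatment comparison up to 5 called rises and falls, the extremes of signal and spread, the floor's edges, a fixed set of well-known snoRNAs and the members within GAS5, SNHG1, SNHG12, ZFAS1 and RPL13A. Alternatives covered the floor, scaling, variance prior, arrays fitted, replicate block, scrambled set, clusters per symbol and left-out arrays. The contrast of the lines with scrambled hairpins was added after seeing the data.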

Additional observations from a re-analysis of the deposited data

Results flagged for a closer look

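The effect of EZH2 knockdown differed between HCC70 and MDA-MB-468 for 13 members by the limma contrast, and the values are changes in HCC70 minus changes in MDA-MB-468 in log2 units. Box C/D members were SNORD41 at 2.85, SNORD28 at 1.85, SNORD60 at 1.84, SNORD33 at 1.62, SNORD57 at 1.61, SNORD14C at 1.30, SNORD8 at 1.06, SNORD35A at 0.98 and SNORD46 at 0.54. H/ACA members were SNORA24 at 1.18, SNORA3A at 0.77 and SNORA71D at 0.52. SCARNA12 stood at -0.62. All 13 rest on 8 arrays, and for 7 of them (SNORD28, SNORD14C, SNORD46, SNORA24, SNORA3A, SNORA71D and SCARNA12) leaving out at least 1 array ended the call. With scrambled set b as the HCC70 reference SCARNA12 (-0.33), SNORA3A (0.54) and SNORD14C (0.89) were no longer called.

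The effect of EZH2 knockdown also differed from that of EED knockdown in HCC70 for SCARNA12, at -0.73. That call was kept under 5 of 8 left-out arrays, and it was lost with the scrambled sets exchanged (-0.16, adjusted p = 0.395).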

How the results depend on the processing

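Counts of called members moved more than 1.5 times under these settings. The share of all clusters called follows each count in brackets. Fitted on only the arrays compared, limma called 2 with shEZH2 in HCC70 (1.71%), 13 with shEED (27.4%) and 0 with shEZH2 in MDA-MB-468 (0.13%). It called 41 between the scrambled sets (38.8%), 6 in the contrast of the lines (3.09%) and 5 in that of shEZH2 with shEED (7.13%). With the other scrambled set the counts were 32 with shEZH2 in HCC70 (26.7%), 28 with shEED (36.7%), 22 between the lines (16.2%) and 46 between the knockdowns (42.3%). With both sets together they were 26 with shEZH2 in HCC70 (18.8%), 12 with shEED (27.6%) and 34 between the knockdowns (32%). For the knockdowns the shared reference cancels, so that count is of shEZH2 minus shEED directly. The count between the lines, 17 (13.4%), stayed within 1.5 times. With no floor 2 were called in MDA-MB-468 (2.55%). For shEZH2 against shEED the count was 2 with a floor of log2 7 (8.49%) and with a second quantile normalization (7.02%). It was also 2 with a variance trend (6.87%) and with the replicate block (7%). Same-numbered arrays do not pair, and with the replicate block the counts were 9, 0, 0 and 4 in the 4 treatment comparisons (12.1%, 15.4%, 0.896% and 9.27%).

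With 1 array left out, calls ran from 2 to 15 with shEZH2 in HCC70, 0 to 1 with shEED, 0 to 0 with EZH2 cDNA, 0 to 9 in MDA-MB-468, 5 to 10 between the scrambled sets, 6 to 23 between the lines and 0 to 6 for shEZH2 against shEED. The lone array of a group is then assumed to vary like the others. The share of all clusters called also changed with the array left out, so these ranges are not a result about the members alone. Median changes ran from -0.11 to 0.23 with shEZH2 in HCC70 and from -0.10 to 0.11 with EZH2 cDNA.

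Of the values for named members, 2 changed sign and were called. SNORD12C with shEZH2 in HCC70 was -0.95 (adjusted p = 0.00757) against set b, since set b reads higher, and 0.40 in the main setting. SCARNA9 was 0.76 (adjusted p = 0.0454) with the mean of both clusters, since they differ. For other moves the cause was not tested. Centring arrays moved the median of all clusters in the contrast of the lines with scrambled hairpins to 0.11, from 0.03.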

Other observations

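Outside the members, 45 clusters that name a snoRNA together with other genes reached the floor. With shEZH2 in HCC70 limma called 2 of them higher and 0 lower (4.44%, beside 11.4% of all clusters tested), and in MDA-MB-468 0 higher and 3 lower (6.67%, beside 8.3%). Set b minus set a gave 10 higher and 1 lower (24.4%, beside 22.7%), and the contrast of the lines' knockdown effects gave 6 higher and 0 lower (13.3%, beside 13.2%). Their median SD between duplicates was 0.21 log2 units. These clusters can carry signal of the host transcript or of a related snoRNA, and single ones were not named.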
